A study of Mus musculus with 9 samples.

Results

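The promoters described here are those of 53 cytosolic ribosomal protein genes, 23 encoding proteins of the small subunit (Rps genes) and 30 encoding proteins of the large subunit (Rpl genes). They were chosen by gene symbol from 21853 protein-coding genes. A further 27 cytosolic ribosomal protein genes are not among them and are described near the end. The data were ChIC-Seq peak lists of oviductal muscle cells, isolated from WT mice 8 to 12 weeks of age on day 2 (D2) of pregnancy and plated for a few hours. In ChIC-Seq an antibody directs MNase fused to protein A to chromatin, and the released fragments are sequenced. There were 3 H3K27ac samples, 3 H3K4me1 samples and 3 IgG control samples, all from cells of the same kind and day. WT stands in the sample titles of both marks and not in those of IgG. No genotype or treatment is compared, and the comparison is between the marks. Peaks were available for the 6 samples of the marks singly and, for each mark, as a further list on the pooled replicates, which makes 8 lists. The labels do not say whether replicates came from separate animals, so the spread between them may be technical.

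Ribosomal protein genes encode the protein part of the ribosome, the machine that translates mRNA in every cell. They are transcribed at high levels in growing cells from promoters that usually lack a TATA box and start within a short run of pyrimidines. The mRNAs therefore begin with a terminal oligopyrimidine (TOP) stretch, through which the mTOR pathway and LARP1 control their translation. H3K27ac marks active promoters and enhancers, whereas H3K4me1 is typical of enhancers and of the flanks of active promoters, where the start itself usually carries H3K4me3.

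RefSeq promoter sequences are shown for the region around which the marks lie, although the marks were measured against the GENCODE starts. Of the 53 genes, 43 had a RefSeq promoter entry on GRCm38.p6, and those without one were Rps14, Rps20, Rps29, Rpl3, Rpl7, Rpl8, Rpl17, Rpl29, Rpl30 and Rpl32. The stretches below run from 80 bases before to 10 bases after the RefSeq start, in the direction of transcription, with the longest run of C and T near the start in capitals. Rpl19 had the highest and Rps21 the lowest mean rank of H3K27ac pileup. Rpl4, Rps18, Rps27 and Rpl38 carried no H3K4me1 promoter peak in any replicate list, and neither did Rpl19. For these 6 genes the RefSeq start lay between −29 and 12 bp from the main GENCODE start, and for 34 of the 43 it lay within 100 bp.
Rpl19 (chr11:98026844-98026933, plus strand): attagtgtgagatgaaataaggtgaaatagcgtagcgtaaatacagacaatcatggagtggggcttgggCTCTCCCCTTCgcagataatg
Rpl4 (chr9:64173307-64173396, plus strand): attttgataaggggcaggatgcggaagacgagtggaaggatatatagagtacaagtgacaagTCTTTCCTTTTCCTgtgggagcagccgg
Rps18 (chr17:33955656-33955745, minus strand): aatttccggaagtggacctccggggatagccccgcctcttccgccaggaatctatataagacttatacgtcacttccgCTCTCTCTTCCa
Rps27 (chr3:90213639-90213728, minus strand): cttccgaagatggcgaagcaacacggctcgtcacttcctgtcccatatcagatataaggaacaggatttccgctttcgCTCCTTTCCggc
Rpl38 (chr11:114668500-114668589, plus strand): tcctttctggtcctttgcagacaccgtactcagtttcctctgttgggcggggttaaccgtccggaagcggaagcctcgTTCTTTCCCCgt
Rps21 (chr2:180257299-180257388, plus strand): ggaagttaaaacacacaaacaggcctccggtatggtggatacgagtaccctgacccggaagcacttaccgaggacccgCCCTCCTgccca
The capital runs were 11 bases in Rpl19, 14 in Rpl4, 11 in Rps18, 9 in Rps27, 10 in Rpl38 and 7 in Rps21. In Rpl19 and Rpl4 the run began at −11 and −18 bases from the RefSeq start and ended before it. In the other printed genes it began at −2 bases and crossed the start. Over the 300-base RefSeq promoters (250 bases before to 50 after the start), a pyrimidine run of at least 8 bases on the sense strand within 30 bases of the start occurred in 26 of 43 members, or 60.5%. It occurred in 22.1% of 16509 promoters overall and in 20.8% of the 7945 promoters of genes with H3K27ac in all 3 lists. The ETS core CCGGAA, on either strand, was in 21 members (48.8%) against 19.9% of all promoters and 31.7% of the H3K27ac-marked ones. The TATA box TATAAA was in 2 members (4.65%) against 12.9% and 6.70%. The GC box GGGCGG, searched on both strands, was in 53.5% of members, 48.5% of all promoters and 67.2% of marked ones, and CCAAT was in 27.9%, 38.5% and 38.9%. The E-box CACGTG was in 11.6%, 8.07% and 10.2%, and AAGATGGC, the core of a YY1 motif, in 6.98%, 3.28% and 5.25%. Among the stretches above, CCGGAA occurs in Rps18, Rps27, Rpl38 and Rps21, and AAGATGGC in Rps27. Median GC content was 57.0% in members and in all promoters and 61.7% in marked ones. The median observed over expected CpG ratio was 0.87 in members, 0.601 in all promoters and 0.796 in marked ones. These matches describe letters and do not show binding.

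The replicate calls rested on 40551842 to 78891920 treatment fragments against 3110985 to 3713369 IgG fragments, a ratio of 11.3 to 25.2, and gave 93684 to 152889 peaks a list. The control was IgG replicate 2 for H3K4me1 replicates 1 and 2 and for H3K27ac replicate 2. It was IgG replicate 3 for replicate 3 of both marks and IgG replicate 1 for the remaining H3K27ac list. Of the smooth muscle markers, 3 of 8 (Acta2, Des and Smtn) had an H3K27ac promoter peak in all 3 lists, Tagln had it in 2, Cnn1, Lmod1 and Mylk in 1, and Myh11, which encodes smooth muscle myosin, in none. The same was true of 6 of 6 stromal, 0 of 7 epithelial, 0 of 4 endothelial and 1 of 6 blood cell markers (Ptprc). Among the endothelial markers Cdh5 and Tek had it in 2 lists and Pecam1 and Kdr in 1. The pooled H3K27ac list had a promoter peak for 5 of 8 smooth muscle markers, Myh11 included, and for all 6 stromal, 2 epithelial (Krt8 and Pax8), all 4 endothelial and 1 blood cell marker. Of the epithelial markers, Krt8, Krt18, Ovgp1 and Cdh1 had H3K27ac in 1 replicate list, and Epcam had no promoter peak of either mark in any list. H3K4me1 was in all 3 lists for 4 smooth muscle, 5 stromal, 1 epithelial (Krt8), 0 endothelial and 0 blood cell markers. The cells are therefore called by their label, and the part of other cell types in the peaks of the ribosomal protein genes was not tested.

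Each of the 53 members carried H3K27ac at its promoter, taken as 1 kb either side of any start of its protein-coding transcripts. All 53 had an H3K27ac promoter peak in each of the 3 replicate lists and in the pooled list. Over all protein-coding genes, 55.3%, 54.1% and 53% had one in replicates 1, 2 and 3, 45.9% in all 3 and 56.2% in the pooled list. H3K4me1 was found less widely at the same promoters. A promoter peak of H3K4me1 was present in all 3 lists for 11 members, where 27.9% of all genes and 52.9% of the 10034 genes with H3K27ac in all 3 lists had one. The same 11 members had both marks in all 6 lists, against 24.3% of all genes. The count of 11 depended on the definition used, since it was 2 when peaks under a −log10 p-value of 1.3 were dropped, 6 with the main start alone or a window of 250 bp, 19 with the starts of all annotated transcripts and 30 with a window of 3 kb.

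The other 42 members were spread over the remaining classes. There were 15 with H3K4me1 in 2 lists, 11 with it in 1 list and 16 with it in none, beside 15.8%, 13.7% and 42.7% of all genes. Genes with no H3K4me1 include the many that carry neither mark, so the class with H3K27ac in all 3 lists and H3K4me1 in none was counted as well. It held those 16 members, 4.19% of all genes and 9.13% of the genes with H3K27ac in all 3 lists. On the small subunit they were Rps2 and Rps3 at the mRNA entry channel, Rps15 and Rps18 of the head, Rps23 of the decoding centre, Rps19, which is mutated in Diamond-Blackfan anaemia, and Rps27. On the large subunit they were Rpl4, Rpl17 and Rpl26 along the nascent peptide tunnel and its exit, Rpl22, which has a paralog in Rpl22l1, Rpl38, known for the translation of Hox mRNAs, and Rpl13, Rpl19, Rpl23 and Rpl32. By subunit they were 7 of 23 small and 9 of 30 large subunit genes. The pooled H3K4me1 list nevertheless had a promoter peak for 7 of these 16, namely Rps3, Rps23, Rps27, Rpl17, Rpl19, Rpl26 and Rpl38, and none for the other 9. At Rps27 the pooled H3K4me1 peaks covered the start and 1111 bp of the window.

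The members with H3K4me1 differed in part between lists. Promoter peaks were present for 29 members in replicate 1, 21 in replicate 2 and 24 in replicate 3, beside 45.4%, 41.9% and 41.5% of all genes. All 21 members of replicate 2 were among the 29 of replicate 1 (100% and 72.4% of the respective lists), and these 2 lists shared an IgG library. Replicates 1 and 3, with different IgG libraries, shared 16 members (55.2% and 66.7%), and replicates 2 and 3 shared 11 (52.4% and 45.8%). Over all protein-coding genes the corresponding shares were 87.4% and 80.7% for replicates 2 and 1, 70.0% and 76.7% for replicates 1 and 3, and 73.7% and 74.5% for replicates 2 and 3. Among genes with H3K27ac in all 3 lists they were 89.0% and 85.9%, 78.5% and 82.0%, and 80.1% and 80.9%. No test was run on these overlaps. Another 8 members had H3K4me1 in replicate 3 alone and 3 in replicate 1 alone, and this split was not counted over all genes. Without replicate 3, 21 of 53 members carried H3K4me1 in both remaining lists. So did 8016 of 21853 protein-coding genes and 6475 of the 10034 genes with H3K27ac in all 3 lists. Over all genes, deviations of promoter coverage from the mean of the mark correlated at 0.298 to 0.412 between H3K27ac and H3K4me1 lists with the same IgG library (3 pairs) and at −0.424 to 0.0046 between those with different ones (6 pairs). Such deviations cancel over the 3 lists of a mark, so positive values in some pairs entail negative ones in others. The part of the IgG library was not tested.

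**Figure D1:**
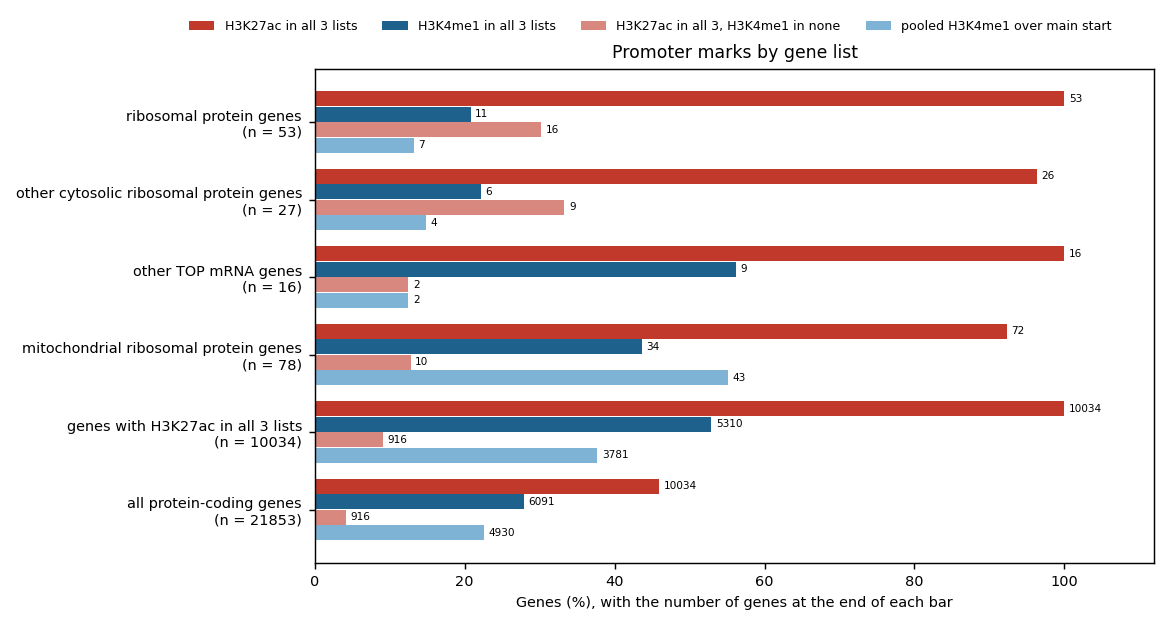
Share of genes in each list (horizontal axis, percent, with the number of genes at each bar's end) with an H3K27ac promoter peak in all 3 replicate lists, with H3K4me1 in all 3, with H3K27ac in all 3 and H3K4me1 in none, and with pooled H3K4me1 over the main start. All 53 ribosomal protein genes had H3K27ac and 11 had H3K4me1 in all 3 lists, and 7 had pooled H3K4me1 over the main start.

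Within the 2001 bp centred on the main start, the start of the best-annotated transcript, peaks of H3K27ac covered far more than peaks of H3K4me1. The median coverage of the 53 members was 1562 bp in H3K27ac replicate 1, 1699 bp in replicate 2 and 1524 bp in replicate 3, or 1595 ± 92.0 bp (SD, n = 3). For H3K4me1 the median was 0 bp in each of the 3 lists. Over all protein-coding genes it was also 0 bp in each H3K4me1 list, and 173 ± 103 bp in H3K27ac (SD, n = 3). Among all genes with H3K27ac in all 3 lists, the median was 1479 ± 94.7 bp in H3K27ac and 328 ± 44.1 bp in H3K4me1 (SD, n = 3).

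Gene by gene, the 3 H3K27ac values lay above the 3 H3K4me1 values with no overlap in 45 of 53 members, where 26.8% of all genes and 58.4% of the genes with H3K27ac in all 3 lists showed this. The reverse held for 0 members, beside 1.36% and 0.757%. The mean H3K27ac coverage was higher than the mean H3K4me1 coverage in all 53, as in 51.4% of all genes and 90.5% of those with H3K27ac in all 3 lists. The exact permutation test, two-sided over the 20 ways of dividing 6 lists into groups of 3, gave p = 0.1 for each of the 45, the smallest it can give. Adjusted by the Benjamini-Hochberg method over all genes, the exact permutation p was 0.355, so no single gene passed 0.05 and the design did not allow it. The 45 comprised 17 of 23 small and 28 of 30 large subunit genes.

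Rps2 and Rpl19 stood at one end of the range, with 2001 bp covered by H3K27ac and 0 bp by H3K4me1 in each replicate list. In the pooled H3K4me1 list Rpl19 had 97 bp covered and Rps2 had 0 bp. Rpl23 was close to them, at 2001, 2001 and 1988 bp of H3K27ac in replicates 1, 2 and 3, with 0 bp in each H3K4me1 list. At the other end were the 8 members whose lists overlapped, namely Rps10, Rps12, Rps16, Rps21, Rps26, Rps28, Rpl5 and Rpl34. Rpl34, on the large subunit, had 1853, 2001 and 1774 bp of H3K27ac and 1996, 2001 and 281 bp of H3K4me1. Rps28, of the small subunit, had 2001 bp of H3K27ac in each list and 1253, 2001 and 116 bp of H3K4me1. In both genes H3K4me1 replicate 3 was the low value. Rps26, at the mRNA exit channel, had the opposite order, with H3K4me1 at 0, 0 and 1442 bp beside 1515, 1291 and 2001 bp of H3K27ac. Rpl5, which with Rpl11 binds the ribosomal 5S RNA, had 1023, 1224 and 880 bp of H3K27ac and 990, 1033 and 0 bp of H3K4me1.

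**Figure D2:**
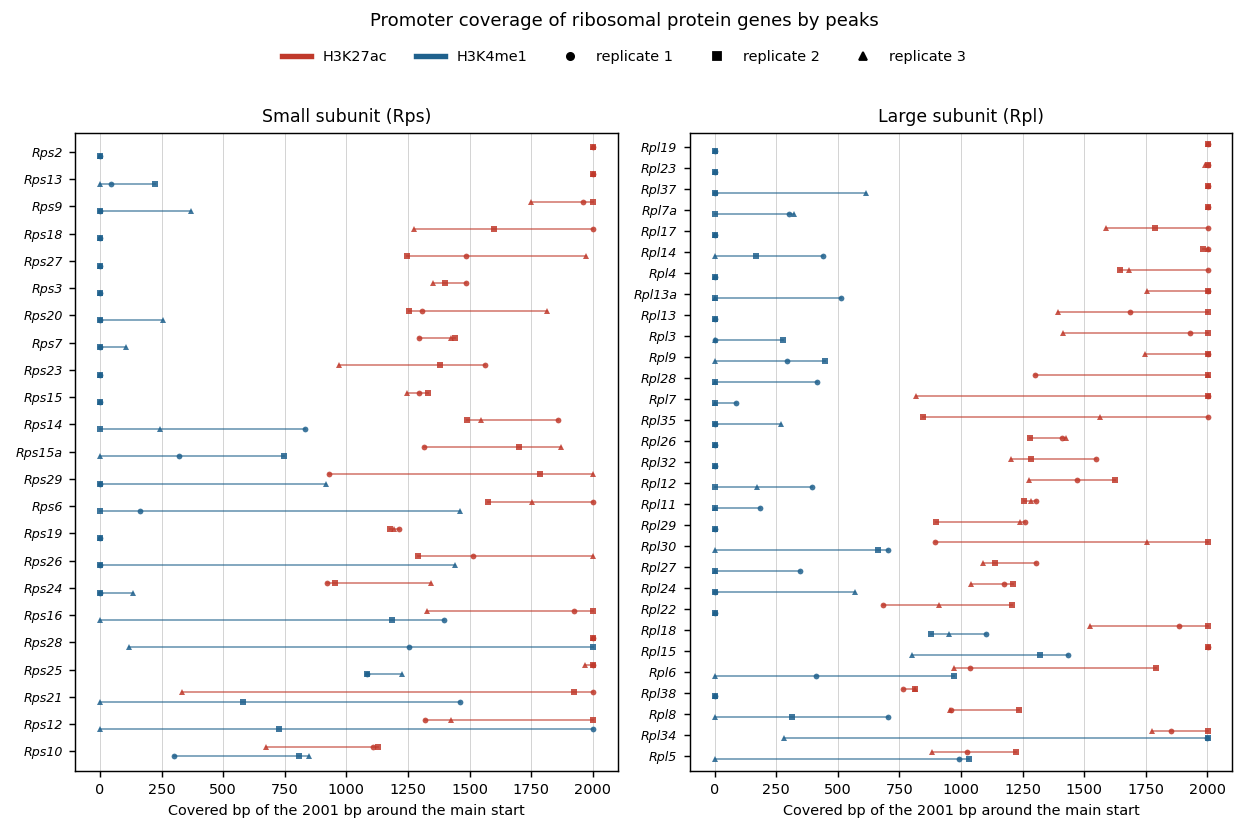
Base pairs of the 2001 bp around the main start covered by peaks (horizontal axis), for each small subunit gene (left) and large subunit gene (right), with H3K27ac in red, H3K4me1 in blue, 1 point for each replicate list and a line from the lowest to the highest. The colours are separate in 45 of 53 genes, and many H3K4me1 points sit at 0.

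H3K27ac lay over the start and reached further downstream than upstream of it. The main start itself was inside an H3K27ac peak in all 3 lists for 39 members (25.4% of all genes, 55.4% of those with H3K27ac in all 3 lists), in 2 lists for 10, in 1 list for 3 and in none for 1. Single lists covered 48, 48 and 44 member starts, beside 38.9%, 38.9% and 36.3% of all genes, and the pooled list covered 52, beside 46.3%. The exception throughout was Rpl38, whose H3K27ac peaks began 237, 190 and 188 bp downstream of the start in replicates 1, 2 and 3 and 170 bp downstream in the pooled list. The 3 members covered in 1 list were Rps10, Rps24 and Rpl8. Rpl8, which helps to form the peptidyl transferase centre, had its peak begin at 40 and 45 bp downstream in replicates 1 and 3 and 233 bp upstream in replicate 2. For Rps24, mutated in some Diamond-Blackfan anaemia, the edges were 78 and 46 bp downstream in replicates 1 and 2 and 341 bp upstream in replicate 3. In these 2 genes the edge of the peak thus fell on either side of the start from list to list.

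Where the start was covered, the H3K27ac peak over it had a median length of 3084, 3436.5 and 2839 bp in replicates 1, 2 and 3 (3120 ± 300.4 bp, SD, n = 3), against 2431 ± 147 bp for all covered genes. The median reach was 868 ± 104 bp upstream and 1956 ± 72.0 bp downstream, where all covered genes had 922 ± 56.1 bp and 1335 ± 99.2 bp. The additional length thus lay on the downstream side. Ribosomal protein genes are short, with main transcripts of 981 to 11817 bp and a median of 3211 bp against 15645 bp for all protein-coding genes. H3K27ac peaks covered a median of 64.6 ± 1.76% of the main transcript in members and 11.6 ± 1.27% in genes with H3K27ac in all 3 lists (SD, n = 3). In the pooled list 46 members had over 50% of the transcript covered, where 5.29% of all genes and 10.9% of those with H3K27ac in all 3 lists did. All of it was covered in 17 members, beside 1.69% and 3.61%. The part of transcript length in these shares was not tested.

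The longest pooled H3K27ac peaks over a start were at Rpl24 (12048 bp), Rpl17 (8690 bp) and Rpl35 (8631 bp). Rpl24, which is mutated in the belly spot and tail mouse, had peaks of 4789, 10062 and 11599 bp in replicates 1, 2 and 3, reaching 4614, 9853 and 11560 bp downstream and no more than 208 bp upstream. Its peak was long on the downstream side in every list, while its length varied widely between lists. The main transcript of Rpl24 was 5161 bp long, so the peaks of replicates 2 and 3 ran past its end. For Rpl17, at the exit of the peptide tunnel, the replicate peaks were 2712, 3791 and 2340 bp, all shorter than the pooled one. That pooled peak reached 7684 bp downstream, past the end of a main transcript of 2905 bp. Rpl35, also at the tunnel exit, had 5766 bp in replicate 1 and 3519 bp in replicate 3, and its start was not covered in replicate 2.

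The shortest pooled peaks were at Rpl22 (1282 bp), Rps3 (1755 bp) and Rpl29 (1810 bp). Rpl22 had 683, 1205 and 912 bp in the 3 lists, the lowest length of any member in replicate 1, on a transcript of 8205 bp of which the pooled peak covered 7.20%. Rps3 had 2516, 1418 and 2619 bp, so the peaks of replicates 1 and 3 were longer than the pooled one. Rpl29, a small heparin-binding protein, had 1666 and 1892 bp in replicates 1 and 3, with the start not covered in replicate 2.

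**Figure D3:**
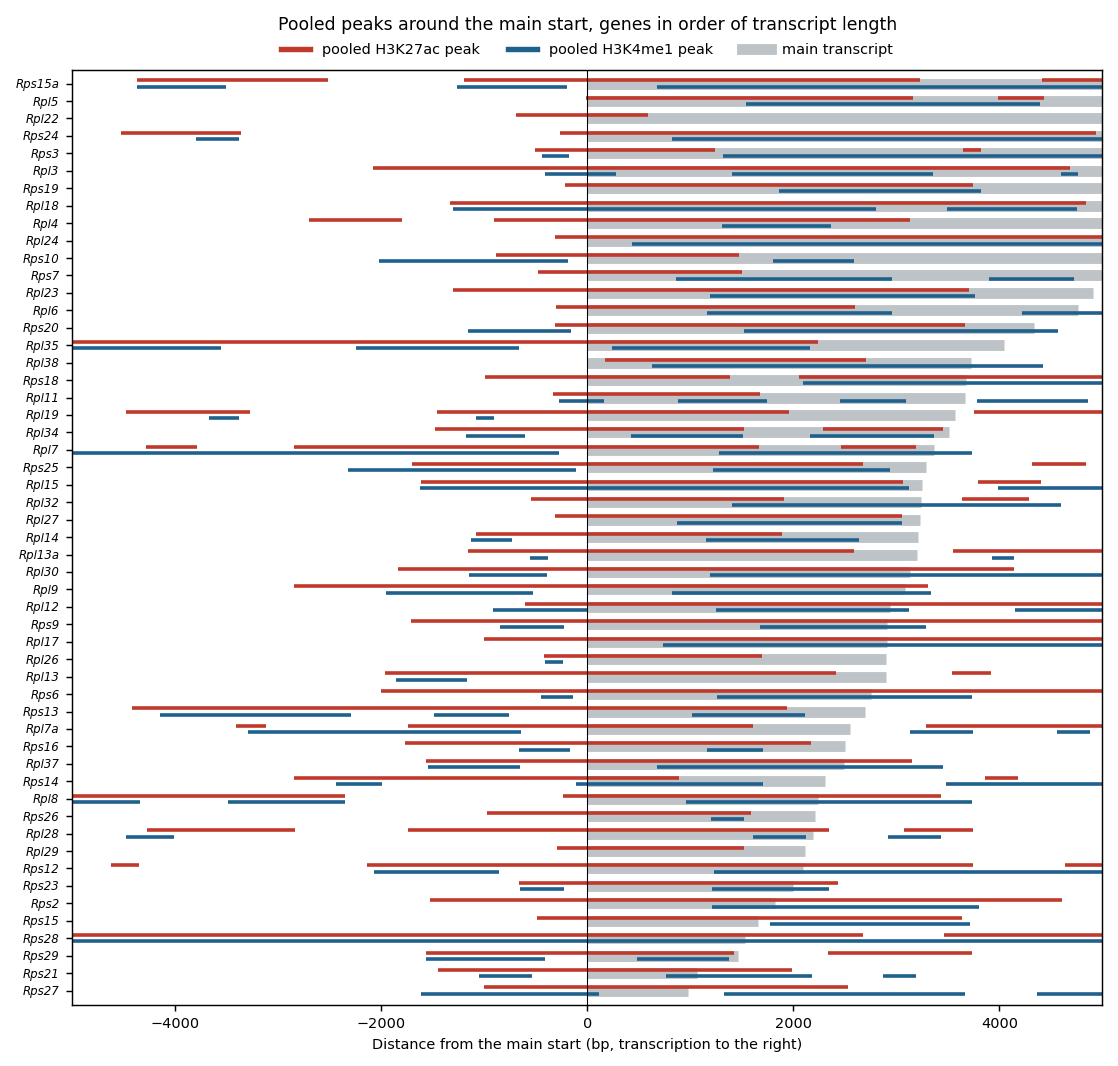
Pooled H3K27ac peaks (red) and pooled H3K4me1 peaks (blue) around the main start of each ribosomal protein gene, with the main transcript in grey and genes in order of transcript length, on an axis of distance from the start in bp that is cut at 5 kb. Red bars cross the start in 52 of 53 genes and blue bars in 7, with most blue bars beginning downstream.

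Coverage of the start itself by H3K4me1 was counted next. The main start was inside an H3K4me1 peak in all 3 lists for 1 member, Rps25 (3.52% of all genes, 6.41% of those with H3K27ac in all 3 lists). The number was 0 when peaks under a −log10 p-value of 1.3 were dropped, 2 without H3K4me1 replicate 2 and 4 without replicate 3. Single lists covered 11, 6 and 4 member starts (20.8%, 11.3% and 7.55%), beside 15.2%, 12.8% and 11.3% of all genes and 25.2%, 21.5% and 18.9% of those with H3K27ac in all 3 lists. None of the 3 replicate lists covered the start in 38 members (71.7%), near the 75.8% of all genes and above the 60.7% of those with H3K27ac in all 3 lists. The pooled H3K4me1 list, on more fragments, had a promoter peak for 40 members (56.3% of all genes, 92.4% of those with H3K27ac in all 3 lists) and covered 7 starts (22.6% of all genes, 37.7% of those with H3K27ac in all 3 lists), those of Rps14, Rps27, Rps28, Rpl3, Rpl11, Rpl15 and Rpl18. H3K4me1 in the promoter window without covering the start, in all 3 lists, was counted for 6 members, 12.7% of all genes and 24.7% of those with H3K27ac in all 3 lists. This count was 1 when peaks under a −log10 p-value of 1.3 were dropped, 10 without H3K4me1 replicate 3, 20 with a window of 3 kb and 33 in the pooled list.

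Rps25, a small subunit protein needed for initiation at some viral internal ribosome entry sites, had H3K4me1 peaks of 1583, 1466 and 1650 bp over its main start. In replicates 1 and 2 they reached 1500 and 1383 bp upstream but ended 82 bp downstream, and in replicate 3 the peak reached 224 bp upstream and 1425 bp downstream. The peaks of the first 2 lists and of the third therefore lay mostly on opposite sides. The nearest RefSeq start of Rps25 was 575 bp downstream of the main start, so the count of 1 rests on which start is used. The pooled H3K4me1 list had 2 promoter peaks at Rps25, neither of them over the start. H3K27ac peaks of 3201, 4393 and 3348 bp covered it in the 3 lists.

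Read along the gene, H3K27ac covered 88.1 ± 4.36% of members at the start, 95.0 ± 1.09% at 500 bp downstream, 89.3 ± 2.18% at 1000 bp and 47.8 ± 3.93% at 2000 bp (SD, n = 3 lists). At 500 bp and 1000 bp upstream it covered 59.7 ± 3.93% and 37.1 ± 6.06%. Genes with H3K27ac in all 3 lists had 75.7 ± 2.19% at the start and 63.2 ± 3.66% at 1000 bp downstream, and their upstream values were 63.6 ± 2.95% and 43.8 ± 3.18%. The ranges over the lists overlapped upstream and did not overlap at the start or at 1000 bp downstream.

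For H3K4me1 the profile of the members was low at the start and rose downstream. In the replicate lists it covered 13.2 ± 6.80% of members at the start, 11.3 ± 3.77% at 500 bp, 15.7 ± 1.09% at 1000 bp, 30.8 ± 4.75% at 1500 bp and 34.6 ± 8.51% at 2000 bp downstream. Upstream it covered 14.5 ± 4.36% at 500 bp and 18.2 ± 5.76% at 1000 bp, and the ranges over the lists overlapped that at the start. Genes with H3K27ac in all 3 lists had 21.9 ± 3.14%, 23.4 ± 2.47%, 35.1 ± 1.14%, 39.9 ± 1.58% and 37.6 ± 1.66% at the same positions from the start downstream. At 500, 1000 and 1500 bp downstream the ranges of the members and of these genes over the 3 lists did not overlap, whereas at the start and at 2000 bp they did. Upstream, these genes had 28.1 ± 1.27% at 500 bp and 25.5 ± 0.661% at 1000 bp. There too the ranges did not overlap those of the members, with 24.9% and 24.5% as the nearest values at 1000 bp. The pooled list, also low at the start, had 13.2% of members at the start, 15.1% at 500 bp, 35.8% at 1000 bp, 69.8% at 1500 bp and 73.6% at 2000 bp, beside 37.7%, 40.8%, 60.7%, 63.4% and 56.8% of the genes with H3K27ac in all 3 lists. At 1500 and 2000 bp the members' mean share was thus below that of these genes in the replicate lists and above it in the pooled list. No test was run on these shares, since the genes are not replicates and the members share their libraries with the rest.

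The nearest H3K4me1 edge was located for the members whose start was not covered. In the pooled list 41 of these 46 had an H3K4me1 peak beginning within 5 kb downstream, where 43.5% of all uncovered genes and 86.0% of those with H3K27ac in all 3 lists did. The median distance to that edge was 1200 bp in members, 816 bp in all such genes and 790 bp in those with H3K27ac in all 3 lists. In replicates 1, 2 and 3 the members' medians were 1483, 1427 and 1566 bp, over 29, 32 and 34 genes. In the pooled lists the edge lay inside the H3K27ac peak over the start in 35 of the 40 members that had both (87.5%), a share near the 91.5% of all such genes and 93.4% of those with H3K27ac in all 3 lists. With pooled H3K4me1 on both sides of the start (26 members), the median gap in H3K4me1 was 1518 bp.

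**Figure D4:**
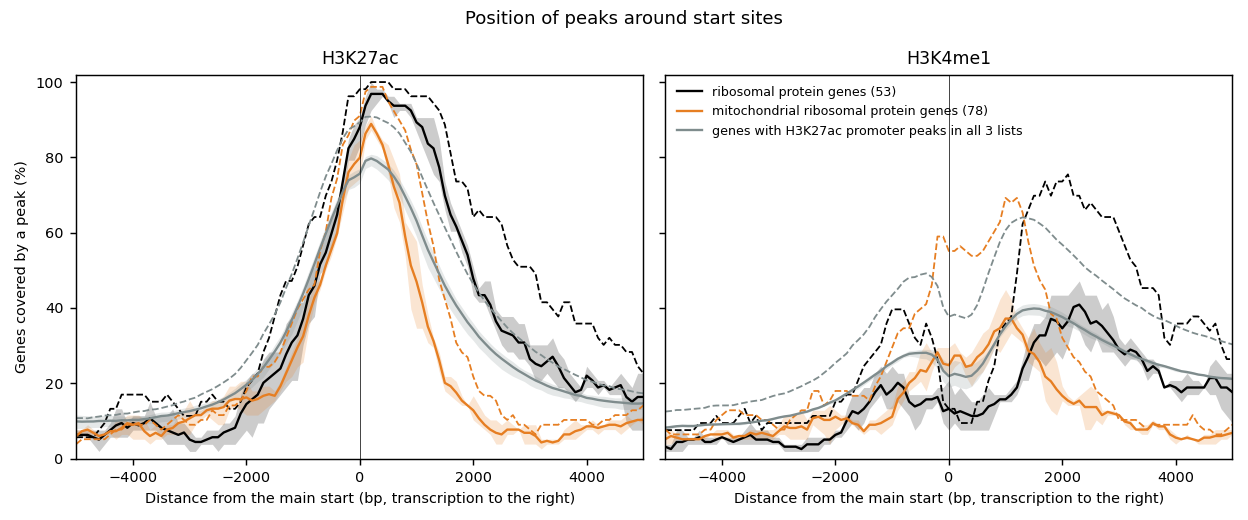
Percent of genes covered by a peak (vertical axis) against distance from the main start in bp, for H3K27ac (left) and H3K4me1 (right), in 53 ribosomal protein genes (black), 78 mitochondrial ribosomal protein genes (orange) and genes with H3K27ac in all 3 lists (grey). Solid lines are means of 3 replicate lists with the range shaded and dashed lines are pooled lists, and pooled H3K4me1 in the ribosomal protein genes goes from 13.2% at the start to 73.6% at 2000 bp downstream.

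Between 1 and 3 kb downstream of the start, pooled H3K4me1 was present in 46 of 53 members (47.1% of all genes, 82.9% of those with H3K27ac in all 3 lists), and on the upstream side in 24 (31.2% and 55.3%). The downstream count comprised 23 of 23 small and 23 of 30 large subunit genes. It was present downstream and absent from the start in 39 members (29.6% and 50.5%). In all 3 replicate lists the downstream region carried H3K4me1 in 24 members (25.2% and 49.2%).

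Peaks were compared by the rank of their pileup. The lists give 1 pileup for each broad peak and no summit, so it is not a summit height. The part of peak length in it was not tested. Pileup is scaled to the IgG depth of each call, so ranks were taken within a list. For each gene, the promoter peak with the highest pileup was given its percentile among such peaks of all marked protein-coding genes. There, 50 is the median by construction. In H3K27ac the median percentile of the members was 83.2, 82.7 and 83.1 in replicates 1, 2 and 3 (83.0 ± 0.275, SD, n = 3). The corresponding pileup was 15.3 ± 0.770 times the mean coverage of the genome, against 11.8 ± 0.514 for all marked genes and 12.4 ± 0.483 for those with H3K27ac in all 3 lists. For H3K4me1, among the members with a promoter peak, the median percentile was 56.4 ± 4.09 and the pileup 9.91 ± 0.421 times the mean coverage, against 9.50 ± 0.254 for all marked genes. The 29, 21 and 24 members behind these H3K4me1 values had passed the peak call, so they describe marked members only.

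Large subunit genes had a median H3K27ac percentile of 89.1, 87.0 and 85.1 in the 3 lists, and small subunit genes 77.5, 75.8 and 71.8. The subunits' medians did not overlap over the lists, and single genes of both subunits ranged widely. The difference was noticed in these data and was not tested.

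The 5 highest ranks were held by Rpl19, Rps14, Rpl13a, Rpl18 and Rpl11. Rpl19, which contacts the small subunit across an intersubunit bridge, had percentiles of 99.4, 97.7 and 96.1 and pileups of 20.7, 19.2 and 19.4 times the mean coverage. Rps14, of the platform of the small subunit and lost in the 5q- syndrome, had percentiles of 97.8, 96.9 and 95.3. Rps14 also held high H3K4me1 ranks, at 99.6, 95.4 and 98.3, with promoter coverage of only 831, 0 and 245 bp around the main start. Rpl13a, which can leave the ribosome to silence inflammatory mRNAs, had 95.4, 97.9 and 96.2. Rpl18 had 98.6, 89.1 and 95.7, and its promoter also holds the opposite-strand start of Sphk2. Rpl11, which with Rpl5 inhibits MDM2 when ribosome assembly is disturbed, had 98.4, 90.9 and 93.5.

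The 5 lowest were Rps21, Rps20, Rps12, Rps26 and Rpl6. Rps21 had percentiles of 46.4, 62.2 and 36.5, with pileups of 11.1, 12.7 and 11.1 times the mean coverage. Its H3K4me1 ranks were 95.3 and 92.2 in replicates 1 and 2, with no promoter peak in replicate 3. Rps20, of the small subunit head, had 45.3, 57.0 and 50.1. Rps12 had 75.7, 36.0 and 55.4, and Rps26 had 56.4, 76.2 and 36.5. Rpl6 had 66.0, 48.6 and 62.6. The ranges of these genes overlapped, so their order among themselves is not resolved, while each of their values lay below all values of Rpl19, Rps14 and Rpl13a.

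**Figure D5:**
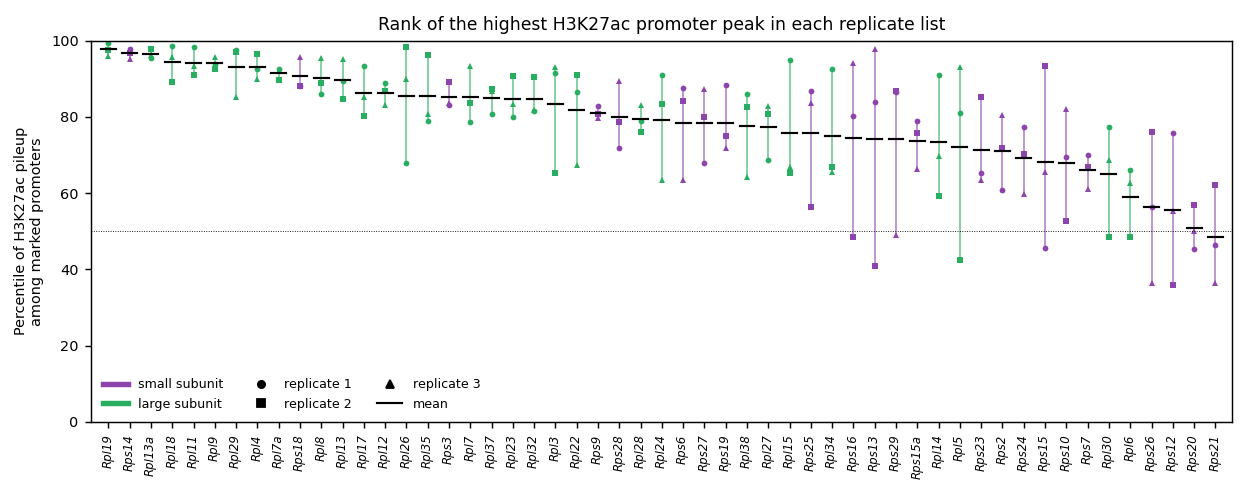
Percentile of the highest H3K27ac promoter pileup among all marked promoters of the same list (vertical axis) for each ribosomal protein gene. Genes are in order of the mean (black bar), with 1 point for each replicate list. Small subunit genes are purple and large subunit genes green. Means go from 97.7 at Rpl19 to 48.4 at Rps21, and the dotted line is the median of all marked genes.

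By the number of H3K4me1 lists, the median H3K27ac percentile was 84.6 for the 16 members with none (range 68.2 to 97.7), 81.2 for the 11 with 1 (range 50.8 to 96.5), 74.4 for the 15 with 2 (range 48.4 to 94.1) and 75.7 for the 11 with 3 (range 65.0 to 96.7). The ranges overlapped widely and no test was made.

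Some promoter windows also held other genes. In 9 members (17.0%) another protein-coding gene began on the opposite strand within 1 kb upstream, beside 8.47% of all genes and 15.9% of those with H3K27ac in all 3 lists, so the members' share was near that of the latter. The pairs were Rpl4 with Zwilch, Rpl7a with Med22, Rpl9 with Lias, Rpl12 with Lrsam1, Rpl15 with Nkiras1, Rpl18 with Sphk2, Rps18 with Vps52, Rps27 with Rab13 and Rps28 with Ndufa7. At these promoters a peak cannot be given to either gene. The pooled H3K27ac peak reached a median of 1335 bp upstream in the 9 and 1154 bp in 43 others, and 3067 and 2436 bp downstream. Small nucleolar RNA genes lay inside the main transcript of 19 members, 37 in all (1.12% of all genes hold one), among them 5 in Rpl4 and 4 in Rpl13a. Pseudogenes named after a member numbered 182, for 40 members, with 23 for Rps12 and 14 for Rps19. Fragments from stretches shared with such copies cannot be placed, and their part in the coverage of the parent genes was not tested.

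Related gene lists were measured in the same way. The 27 other cytosolic ribosomal protein genes, among them Rplp0 and Rpsa, had H3K27ac in all 3 lists in 26 cases, H3K4me1 in all 3 in 6, and H3K27ac in all 3 with H3K4me1 in none in 9. The exception for H3K27ac was Rps4x, which had it in 2 lists and in the pooled list. Their median H3K27ac percentile was 76.9 ± 3.55, and the pooled H3K4me1 list covered 4 of their starts. Of 16 other genes with TOP mRNAs, such as the elongation factors Eef1a1 and Eef2, all had H3K27ac in all 3 lists and 9 (56.2%) had H3K4me1 in all 3, near the 52.9% of genes with H3K27ac in all 3 lists. Pooled H3K4me1 covered the start in 2 of them.

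The 78 mitochondrial ribosomal protein genes, whose products form the separate ribosome of mitochondria, were measured beside the cytosolic members. H3K27ac was in all 3 lists for 72. The exceptions were Mrpl10, Mrpl38, Mrps9, Mrps10 and Mrps35 with 2 lists and Mrps2 with 1. H3K4me1 was in all 3 lists for 34, and pooled H3K4me1 covered 43 starts (55.1%) against 7 of 53 (13.2%) in the members. The replicate lists differed less, with 21.8%, 23.1% and 29.5% of the mitochondrial starts covered in H3K4me1 replicates 1, 2 and 3 and 20.8%, 11.3% and 7.55% of the members' starts, so the shares in replicate 1 were close. Their median H3K27ac percentile was 59.9 ± 0.550 and the H3K27ac peak over the start 1856 ± 74.8 bp long (SD, n = 3), below the members' values in every list. At 2000 bp downstream, pooled H3K4me1 covered 32.1% of the mitochondrial and 73.6% of the cytosolic genes. A neighbouring opposite-strand start within 1 kb was present for 24 of the 78 (30.8%), and its part in these values was not tested.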

How the data were processed

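Peak lists of 3 H3K27ac and 3 H3K4me1 ChIC-Seq samples, each called against IgG, and 2 pooled lists were analysed. Per the labels and file headers, reads were processed with cutadapt and Bowtie2 on GRCm38.p5, and the authors called broad peaks with MACS 2.2.7.1 in paired-end mode at p-value cutoffs of 0.05 (strong) and 0.1 (weak), scaling the larger library to the smaller. The deposited pileup is a coverage signal in fragments at that scale, the deposited fold enrichment is a ratio to local background, and the deposited p-value is given as its −log10. The q-value column was not used. Fragment counts came from the file headers, whose names of the input point to uniquely mapped, duplicate-free alignments. No list of problematic regions was applied here, and other steps are not given in the sources used here.

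Genes and starts were those of GENCODE mouse release 21 protein-coding transcripts. A gene was marked when a peak overlapped 1 kb either side of any start by at least 1 bp. The main start was that of the transcript with the best APPRIS tag, then the best support level, then the greatest length. Mean coverage was IgG fragments times fragment length over the mappable genome size of the caller. Coverage of the main start window was compared between marks per gene by an exact permutation test over all 21853 genes with Benjamini-Hochberg adjustment. Members and gene lists were chosen with earlier results of these data known. Genes named with full values were those at the extremes of H3K27ac rank (5 each way) and pooled peak length (3 each way), those with H3K4me1 over the start in all lists or at the promoter in none, and genes of other lists lacking H3K27ac in any list. Further members were named after their values were seen. Alternatives were a −log10 p-value filter, a pileup filter, other windows, overlaps and starts, each replicate left out, the pooled lists and a replicate block. Python 3.11.15, numpy 2.4.6, pandas 2.3.3 and matplotlib 3.10.9 were used, and scripts were tested on simulated data. Promoter sequences were from RefSeq (GRCm38.p6). A peak list gives no interval for a single value, so precision is the spread of 3 lists, limited by the IgG depth.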

Additional observations from a re-analysis of the deposited data

How the results depend on the processing

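Of 158 values of 13 results under alternatives, 120 stayed within the limits set for them (1.5 times a count, 1 SD of a median) and 38 moved. Members with H3K27ac in all 3 lists numbered 51 to 53, and those with more H3K27ac than H3K4me1 without overlap 36 to 50 (45 as reported). For members with H3K4me1 in all 3 lists, with both marks in all 6, and with H3K4me1 beside but not over the start, the values (11, 11 and 6 as reported) were 2, 2 and 1 when peaks under a −log10 p-value of 1.3 were dropped, 6, 6 and 3 with a window of 250 bp, 30, 30 and 20 with 3 kb, 19, 19 and 11 with the starts of all annotated transcripts, 6, 6 and 2 with the main start alone, and 40, 40 and 33 in the pooled lists. Members with H3K4me1 over the main start in all 3 lists (1) were 0 with the p-value filter and 7 in the pooled list. The median H3K27ac percentile (83.0) was 77.8 with the p-value filter, 82.5 with a pileup of at least 5 times the mean coverage, 82.0 with 250 bp, 83.3 with 3 kb and 85.1 pooled, and that of H3K4me1 (56.4) was 45.8 with the p-value filter and 50.7 with the main start alone. Median coverage changed with the window by construction, to 501 bp (250 bp) and 3004 bp (3 kb) for H3K27ac and 835 bp (3 kb) for H3K4me1. In the pooled lists it was 2001 and 313 bp, and the median H3K27ac peak over the start was 3969.5 bp. Leaving out 1 replicate gave 11 to 21 members for H3K4me1 and for both marks, 1 to 4 for the start and 6 to 10 for the flank, with the highest of each without H3K4me1 replicate 3. Other causes were not tested. With the replicate number as a block (H3K27ac higher in all 3 same-numbered pairs) the count was 49 and the reverse 0. Deviations of same-numbered lists correlated at −0.0078, 0.315 and 0.412 in replicates 1, 2 and 3. In replicates 2 and 3 these lists also shared an IgG library, so pairing by number could not be told apart from it. Over all 9 pairs of an H3K27ac and an H3K4me1 list, the 3 with the same IgG library correlated at 0.298 to 0.412. In 1 of these 3 the numbers differed. The 6 pairs with different IgG libraries correlated at −0.424 to 0.0046. Deviations cancel over the 3 lists of a mark, so positive values in some pairs entail negative ones in others. The part of the IgG library was not tested. Chosen after seeing the data, the 3 pairs of lists with the same IgG library gave 49 and 0 and the 6 pairs with different IgG libraries 45 and 0. IgG depth, at 3110985 to 3713369 fragments, limits how weak a peak can be called, so an H3K4me1 peak not called is not shown to be absent.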

Other observations

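Among 7 paralogs of ribosomal protein genes, Rps27l, Rpl22l1 and Rpl7l1 (42.9%, near the 45.9% of all genes) had an H3K27ac promoter peak in all 3 lists, with mean percentiles of 61.8, 53.6 and 85.3. Rpl3l, known from striated muscle, Rpl10l and Rpl39l, known from the testis, and Rps27rt had no promoter peak of either mark in any list. Each of the 12 genes listed for the control of ribosomal protein genes had H3K27ac in all 3 lists, among them Mtor and Larp1 of the translational pathway and Gabpa and Yy1, factors that bind CCGGAA and AAGATGGC sequences. Mtor alone had H3K4me1 in all 3 lists, and Rptor and Myc had it in none. Their H3K27ac coverage lay above that of H3K4me1 without overlap in 12 of 12, where 26.8% of all genes and 58.4% of those with H3K27ac in all 3 lists did. These genes were named after their values were seen.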
